A study of Mus musculus with 13 samples.

Results

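The genes of milk proteins and lactation were followed across mammary tumors and lungs of mice, as a set of 9 genes chosen by name out of 46679 gene IDs in the deposited tables. The set holds the caseins Csn1s1, Csn1s2a, Csn2 and Csn3, the whey proteins Wap and Lalba, the WAP domain protein Wfdc18, the mucin-like glycoprotein Glycam1 and Mfge8 of the milk fat globule. All 9 symbols were found. RNA-seq covered 3 mammary tumors, 4 lungs taken from mice that bore a tumor, and the lungs of 4 normal mice in 6 libraries. All mice were female FVB, aged 10 weeks. Tumor-bearing mice had received 250000 Met1 cells in the inguinal mammary fat pad at 8 weeks of age, and tissue was frozen 2 weeks later. Met1 is a mouse mammary carcinoma line derived from an FVB mouse that carried the polyoma middle T transgene under the MMTV promoter, so each tumor grew from 1 transplanted line inside host mammary fat. The labels name no vehicle injection for the normal mice. The tumors of mice 6877, 6880 and 6881 were paired with a lung of the same mouse, and the fourth tumor-bearing lung came from mouse 6879. The stated aim was to learn how a distant mammary tumor affects gene expression in the lung.

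Milk proteins are made by secretory luminal cells of the mammary gland in late pregnancy and lactation. Prolactin, acting through its receptor, JAK2 and STAT5, together with glucocorticoid and the luminal transcription factor ELF5, drives the transcription of most of their genes. The caseins form micelles that carry calcium and phosphate, with kappa-casein (Csn3) at the micelle surface. Whey acidic protein (Wap) is a major whey protein of mouse milk, and alpha-lactalbumin (Lalba) is the regulatory subunit of lactose synthase. Glycam1 has a second site of expression in the high endothelial venules of lymph nodes, the vessels through which lymphocytes enter. Mfge8 encodes lactadherin, which bridges phosphatidylserine on dying cells to integrins on phagocytes and is made in many tissues outside the breast.

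On GRCm38 with GENCODE M21 the 4 casein genes lie within 266.5 kb of chromosome 5, between 87666208 and 87932665. Csn1s1 (87666208 to 87682578), Csn1s2a (87774567 to 87788797) and Csn3 (87925579 to 87932665) are on the plus strand and Csn2 (87692624 to 87699630) is on the minus strand. Wap lies at chr11:6635482-6638637 and Wfdc18 at chr11:83709015-83711348, while Lalba at chr15:98480400-98482721 and Glycam1 at chr15:103562759-103565081 share chromosome 15. Mfge8 lies at chr7:79133768-79149060. All 9 are protein-coding. Of the stretches of 75 bases in the transcripts of Csn3, 3 of 4191 also occurred in another gene, and none did for the other 8 genes. No such stretch was shared between 2 caseins.

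The 250 bases before the RefSeq transcription start (GRCm38.p6) are printed for 6 of the genes, to show the proximal promoters of genes that differ most in level among the tumors. The RefSeq table held 8 of the 9 genes, with no entry for Csn3. Capitals mark TTCNNNGAA, the palindromic core that STAT5 dimers bind, or TATAAA, the TATA box. Sequences are written 5′ to 3′ on the strand of the gene.
Csn1s1 (chr5:87665958-87666207, plus strand): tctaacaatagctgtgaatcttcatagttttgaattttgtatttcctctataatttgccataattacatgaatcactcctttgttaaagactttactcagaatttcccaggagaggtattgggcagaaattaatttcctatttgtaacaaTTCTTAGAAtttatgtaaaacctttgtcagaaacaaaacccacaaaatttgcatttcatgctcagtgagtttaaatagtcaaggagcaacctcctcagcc
Csn2 (chr5:87699426-87699675, minus strand): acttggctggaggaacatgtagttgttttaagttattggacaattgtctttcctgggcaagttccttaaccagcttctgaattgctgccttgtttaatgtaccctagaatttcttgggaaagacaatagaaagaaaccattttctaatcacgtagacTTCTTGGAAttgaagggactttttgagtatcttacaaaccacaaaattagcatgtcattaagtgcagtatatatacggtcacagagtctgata
Glycam1 (chr15:103565082-103565331, minus strand): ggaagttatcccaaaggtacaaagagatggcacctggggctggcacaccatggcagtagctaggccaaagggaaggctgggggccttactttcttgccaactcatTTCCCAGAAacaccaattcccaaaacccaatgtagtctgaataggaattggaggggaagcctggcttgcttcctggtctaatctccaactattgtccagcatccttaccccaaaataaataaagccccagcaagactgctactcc
Wap (chr11:6638650-6638899, minus strand): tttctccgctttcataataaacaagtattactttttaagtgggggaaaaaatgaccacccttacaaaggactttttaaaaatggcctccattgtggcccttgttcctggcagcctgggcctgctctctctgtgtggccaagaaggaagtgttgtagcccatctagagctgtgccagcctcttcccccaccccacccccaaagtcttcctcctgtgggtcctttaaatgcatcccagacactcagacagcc
Lalba (chr15:98482684-98482933, minus strand): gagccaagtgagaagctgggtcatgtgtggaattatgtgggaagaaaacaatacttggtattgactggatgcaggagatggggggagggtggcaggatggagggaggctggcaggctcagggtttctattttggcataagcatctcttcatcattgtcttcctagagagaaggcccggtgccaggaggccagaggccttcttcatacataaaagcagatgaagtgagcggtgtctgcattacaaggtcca
Wfdc18 (chr11:83708754-83709003, plus strand): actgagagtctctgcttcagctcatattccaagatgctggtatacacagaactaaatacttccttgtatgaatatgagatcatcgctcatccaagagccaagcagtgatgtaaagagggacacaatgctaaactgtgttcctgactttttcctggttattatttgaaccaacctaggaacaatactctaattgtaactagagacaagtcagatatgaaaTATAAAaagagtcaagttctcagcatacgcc

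The letters TTCNNNGAA were found in the promoters of Csn1s1, Csn2 and Glycam1, starting 100, 93 and 145 bases before the transcription start. The windows of Csn1s2a, Wap, Lalba, Mfge8 and Wfdc18 did not hold it. TATAAA was found only in Wfdc18, 31 bases before the start. Both strands were searched and the motifs do not overlap each other; TTCNNNGAA occurred in 7.02% and TATAAA in 12.4% of 32851 windows of this length.

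Libraries held 8321037 to 13982903 estimated counts. Levels are given as CPM, counts relative to library totals scaled by TMM factors so that libraries can be compared, and as deposited TPM, a level per length, where genes are set against each other. Protein-coding genes made up 1.77% to 6.99% of the TPM of a library, so TPM values are low throughout. Folds were tested with edgeR's quasi-likelihood method with group and preparation batch in the fit, and a gene was called at a Benjamini-Hochberg adjusted p below 0.05. All tumors were in preparation batch 2, with 1 tumor-bearing lung and 4 normal lungs; batch 1 held 3 tumor-bearing and 2 normal lungs. The lungs of normal mice 6886 and 6888 were prepared in both batches, and the batch 1 library is used unless stated. The tissues matched their labels: the summed CPM of 14 alveolar type 2 cell genes was 1185 to 1326 in tumors, 7928 to 17740 in tumor-bearing lungs and 11650 to 18380 in normal lungs.

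In the tumors the 9 genes covered a very wide range of levels, and kappa-casein stood at the top. Per length, Csn3 had 53.5, 26.9 and 43.3 TPM in tumors 6877, 6880 and 6881, which ranked it 199th, 204th and 172nd among protein-coding genes. Wfdc18 followed with 19.4, 5.05 and 14.3 TPM, and Mfge8 with 9.29, 7.44 and 8.81 TPM. The ranges of Wfdc18 and Mfge8 overlapped, whereas every Csn3 value lay above every value of the other 8 genes. Wap had 1.29, 0.193 and 0.338 TPM, and Lalba had 0.796, 0.218 and 0.731 TPM. These 2 whey protein genes overlapped in range and lay below every Mfge8 value. The other caseins were close to absent: summed, Csn1s1, Csn1s2a and Csn2 reached 0.0673, 0.0113 and 0.195 TPM. Csn3 made up 99.87%, 99.96% and 99.55% of the TPM of the 4 caseins in tumors 6877, 6880 and 6881. Glycam1 had no single place in this order, with 5.17 TPM in tumor 6881, 0.0722 TPM in tumor 6877 and 0 in tumor 6880.

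**Figure D1:**
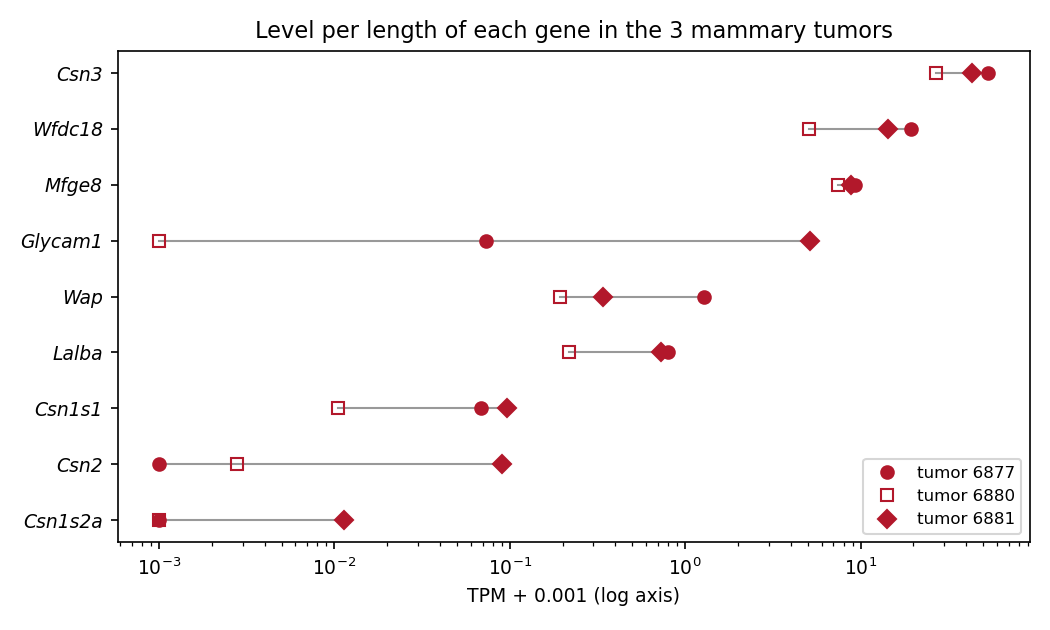
Level per length of the 9 genes in each of the 3 mammary tumors, as TPM plus 0.001 on a log axis, with genes in the order of their mean. Csn3 lies highest in every tumor at 26.9 to 53.5 TPM, and Glycam1 spreads from 0 to 5.17 TPM between tumors.

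Kappa-casein was the member with the most RNA in tumors and the only casein with counts in every lung. Csn3 had 393.8, 255.9 and 336.2 CPM in tumors 6877, 6880 and 6881. In the tumor-bearing lungs of mice 6877, 6879, 6880 and 6881 it had 1.55, 0.497, 0.901 and 1.02 CPM. In the normal lungs of mice 6886, 6887, 6888 and 6893 it had 0.921, 0.593, 0.267 and 0.182 CPM, the last from 2 counts. The tumors thus stood far apart from every lung, while the 2 kinds of lung overlapped. Against tumor-bearing lungs Csn3 was higher by 8.16 on the log2 scale (SE 0.56, adjusted p = 6.4e-07 by edgeR), and against normal lungs by 9.18 (SE 0.49, adjusted p = 6.3e-08 by edgeR). In the 3 mice with both tissues, the lung held 0.393%, 0.352% and 0.302% of the Csn3 CPM of the tumor of mice 6877, 6880 and 6881. In bulk tissue, fewer cells of a type and less RNA per cell cannot be told apart, and RNA of the transplanted line and of host mammary gland in the fat pad cannot be told apart either.

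Csn3 RNA in the lung rested on few estimated counts, with 48 over the 4 tumor-bearing lungs and 24 over the 4 normal lungs. The pooled level in tumor-bearing lungs was 1.97 times that in normal lungs (95% exact counting interval 1.184 to 3.366, without the spread between mice). With the spread between mice in the fit, the log2 fold change was 1.01 (SE 0.55, unadjusted p = 0.101 by edgeR). It was not called, with an adjusted p of 0.446 by edgeR over all genes tested. The highest value was that of tumor-bearing mouse 6877, the only tumor-bearing lung of batch 2. Within batch 1 the log2 fold change was 0.47 and within batch 2 it was 1.68. The batch 2 libraries of normal mice 6886 and 6888 had 0.595 and 0.527 CPM, near the other normal lungs. Of all 16727 genes tested between the lungs, 0.0359% were called, and of the 9 milk and lactation genes 2 could be tested (Csn3 and Mfge8) with 0 called by edgeR, 1 of them (Mfge8) at an unadjusted p below 0.05. DESeq2 gave no adjusted p for Csn3 and did not call Mfge8, and limma on log2 TPM called neither.

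The calcium-sensitive caseins, which in lactation outnumber kappa-casein, were barely detected. Csn1s1 (alpha-S1-casein) had 0.718, 0.156 and 1.01 CPM in tumors 6877, 6880 and 6881, from 21 counts in all. It had 0 counts in the 4 tumor-bearing lungs and in the 4 normal lungs, apart from 1 count in the batch 2 library of mouse 6886. All 3 tumors were above every lung of the fit, at least 9.83-fold higher than tumor-bearing lungs and at least 9.69-fold higher than normal lungs, with 3 counts over the group as the floor. Without tumor 6881 these bounds were 6.01 and 5.93. Csn1s1 was too low for the filter on low counts, so it was not tested. Without that filter its adjusted p by edgeR was 0.153 against tumor-bearing lungs and 0.0302 against normal lungs.

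Beta-casein (Csn2) was counted almost entirely in 1 tumor. Csn2 had 2.34 CPM in tumor 6881, from 30 counts, 0.0780 CPM in tumor 6880 and 0 in tumor 6877. Tumor-bearing lungs had 0 to 0.129 CPM and normal lungs 0 to 0.169 CPM, at most 2 counts in a library. Tumors 6877 and 6880 therefore lay within the range of the lungs. The pooled ratio was 10.9 against tumor-bearing lungs (95% counting interval 3.85 to 42.4) and 8.58 against normal lungs (3.31 to 28.3). Without tumor 6881 the ratios were 0.564 and 0.445, so their direction turned, and without tumor 6880 they were 16.9 and 13.3. The filter removed Csn2 from the tests, and without the filter the adjusted p by edgeR was 0.195 and 0.128. Csn1s2a (an alpha-S2-like casein) was represented by 1 count, in tumor 6881, and by none in the lungs, so no fold is given. Of the genes around the caseins on chromosome 5, 10 of a list of 12 were in the tables and none passed the filter. The most counted of them in tumors was Csn1s2b, a further casein gene, with 0.239, 0.702 and 0.390 CPM in tumors 6877, 6880 and 6881.

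The WAP domain protein Wfdc18, a small secreted protein of the protease inhibitor type known from the mouse mammary gland, followed Csn3 in mean level per length in the tumors. It had 68.8, 23.2 and 53.4 CPM in tumors 6877, 6880 and 6881. Among tumor-bearing lungs it was counted only in mouse 6877, at 0.387 CPM from 4 counts. Among normal lungs it was counted once each in the batch 1 libraries of mice 6886 and 6888, at 0.0767 and 0.0888 CPM, and not in any of the 4 normal libraries of batch 2. Every tumor was above every lung, and tumor 6880 was the lowest of the 3. The pooled ratio was 546.5 against tumor-bearing lungs (95% counting interval 213.0 to 2008), whereas the fit with batch gave a log2 fold change of 7.83 (SE 1.09, 226.7-fold, adjusted p = 0.000125 by edgeR). Without the lung of mouse 6877 the pooled ratio was at least 570.7-fold. Against normal lungs the pooled ratio was 1078 (297.9 to 8908), and the fit gave 9.09 on the log2 scale (SE 0.93, 543.4-fold, adjusted p = 9.19e-06 by edgeR). The pooled ratio was 1640 without normal mouse 6888. Wfdc18 passed the filter on low counts through its tumor libraries alone. It therefore had to differ, and its adjusted p values carry no weight.

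Whey acidic protein was low in tumors and nearly uncounted in lungs. Wap had 6.11, 1.17 and 1.72 CPM in tumors 6877, 6880 and 6881. In the lungs 1 count was found, in tumor-bearing mouse 6879 at 0.124 CPM, and all 6 normal libraries were at 0. Tumor 6877 had the most Wap, and all 3 tumors lay above every lung. Against tumor-bearing lungs the ratio was 123.6 with a 95% counting interval of 21.6 to 4935, and the fit gave a log2 fold change of 7.31 (SE 2.16, adjusted p = 0.0224 by edgeR). The pooled ratio was 68.9 without tumor 6877 and at least 34.2-fold without the lung of mouse 6879. When the lung of mouse 6877 was left out, no tumor-bearing lung of batch 2 remained and the call was lost, with an adjusted p of 1 by edgeR. Against normal lungs Wap was at least 40.6-fold higher (adjusted p = 0.00239 by edgeR), and at least 22.6-fold higher without tumor 6877. As for Wfdc18, only the tumor libraries took Wap through the filter, so its adjusted p values carry no weight.

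Alpha-lactalbumin was at a similar level. Lalba had 4.55, 1.64 and 4.45 CPM in tumors 6877, 6880 and 6881. It had 0.290 CPM, 3 counts, in the tumor-bearing lung of mouse 6877 and 0 in the other 3 tumor-bearing lungs. Normal mouse 6887 had 0.0847 CPM, 1 count, and the other normal lungs had 0. As for Wfdc18 and Csn3, tumor 6880 was the lowest tumor and the lung of mouse 6877 the highest lung. The ratio to tumor-bearing lungs was 54.3 (95% counting interval 18.1 to 267.1) when batch was not taken into account. The fit with batch gave a smaller fold, 3.68 on the log2 scale (SE 1.2, 12.9-fold, adjusted p = 0.0352 by edgeR). All tumors were in batch 2, and so was the tumor-bearing lung that held all Lalba counts of its group. With the mouse as a block, the adjusted p was 0.0524 by edgeR, and it was 0.0758 without tumor 6877, 0.0822 without tumor 6881 and 1 without the lung of mouse 6877. In that last case the bound was at least 42.5-fold. Against normal lungs the pooled ratio was 160.6 (28.3 to 6398), and at least 40.1-fold without normal mouse 6887. The fit gave 5.80 on the log2 scale (SE 1.03, 55.7-fold, adjusted p = 0.0022 by edgeR). Only the tumor libraries took Lalba through the filter, so a difference was fixed beforehand and its adjusted p values carry no weight.

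**Figure D2:**
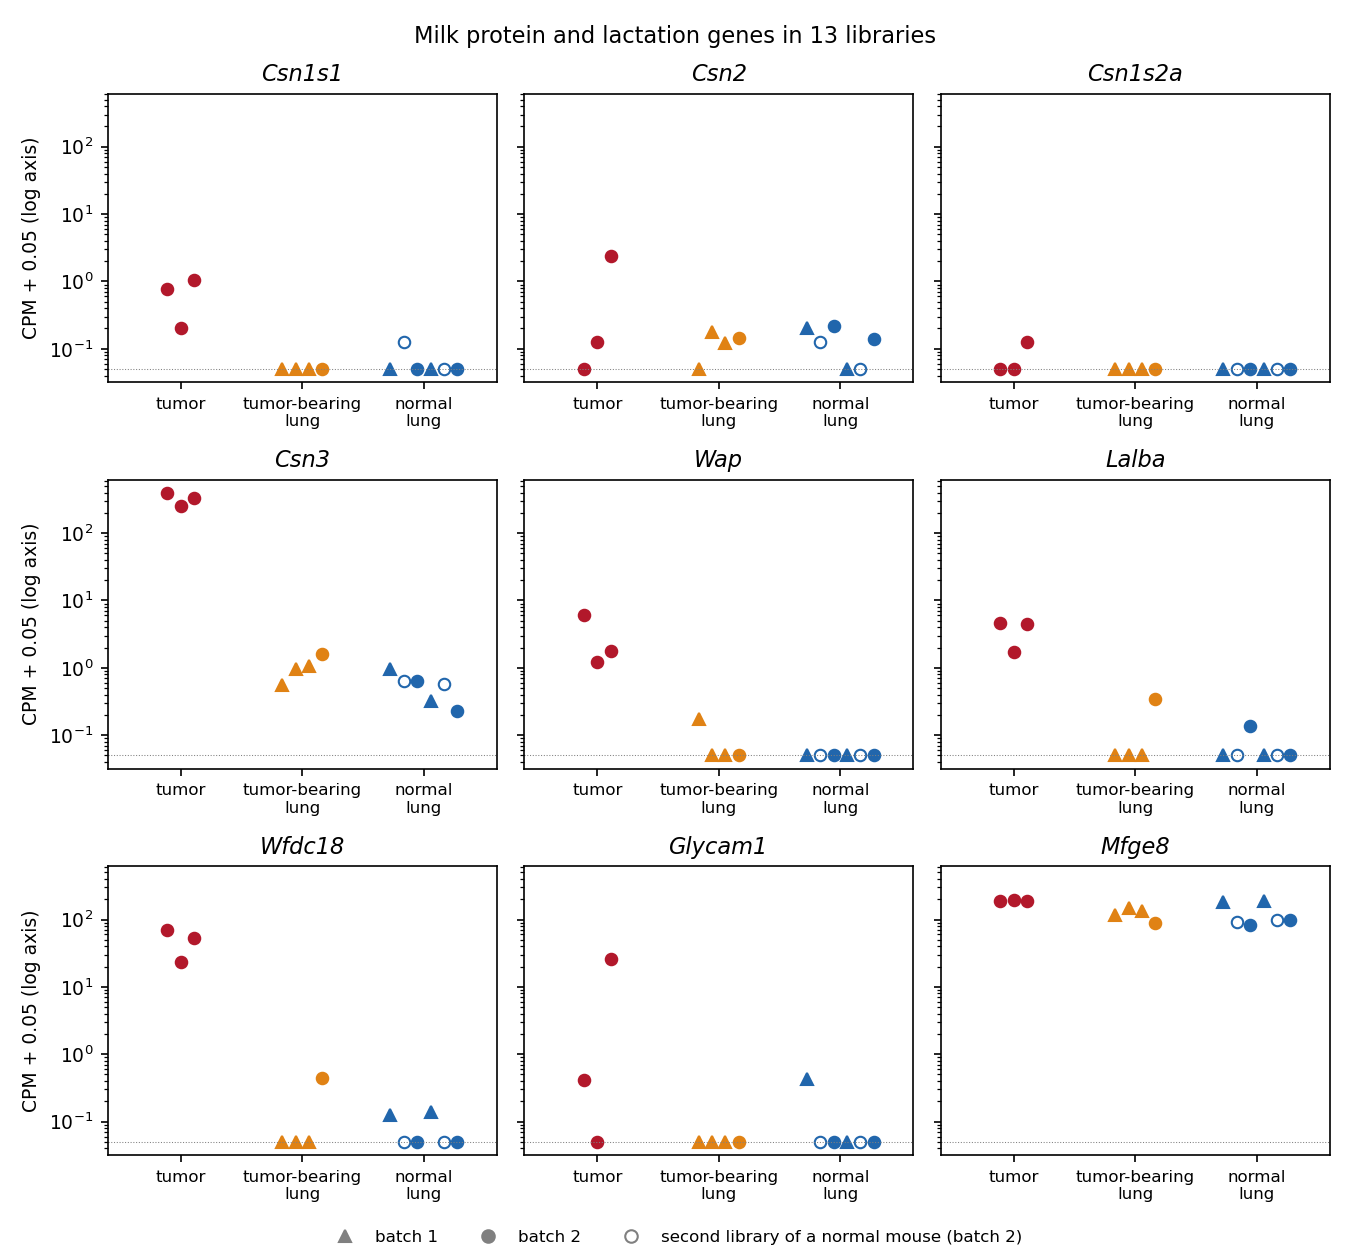
CPM plus 0.05 on a log axis for the 9 genes in the 13 libraries, with 1 point per library, tumors at the left and then tumor-bearing and normal lungs; triangles are batch 1, circles batch 2, and open circles the second library of a normal mouse. The dotted line is a count of 0. Csn3, Wfdc18, Wap, Lalba and Csn1s1 have every tumor above every lung, whereas Mfge8 is at 83.6 to 194.5 CPM in all libraries. Of all genes tested, 26.6% had every tumor above every tumor-bearing lung and 27.2% above every normal lung. Wfdc18, Wap and Lalba passed the filter on low counts through the tumors alone and so had to differ, and Csn1s1 was not tested.

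Glycam1 was present in 1 tumor. It had 25.5 CPM, from 327 counts, in tumor 6881, against 0.359 CPM, from 3 counts, in tumor 6877 and 0 in tumor 6880. All 4 tumor-bearing lungs were at 0. Normal mouse 6886 had 0.384 CPM, from 5 counts, in batch 1 and 0 in batch 2, and the other normal libraries were at 0. Over the groups tumors were at least 154.4-fold higher than tumor-bearing lungs and 91.4-fold higher than normal lungs (95% counting interval 38.8 to 283.3). These folds describe tumor 6881: without it no fold against tumor-bearing lungs can be given, and the ratio to normal lungs was 1.33. Without tumor 6880 they were at least 247.9 and 146.7, and without normal mouse 6886 the second was at least 110.1. The filter on low counts removed Glycam1 from the tests. Without the filter edgeR gave adjusted p = 0.000212 against tumor-bearing lungs and 0.000627 against normal lungs, for a gene high in 1 of 3 tumors.

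Lymph node and B cell genes moved with Glycam1 among the tumors. The summed CPM of 16 such genes was 165.6 in tumor 6881, against 24.3 in tumor 6877 and 23.2 in tumor 6880. All 16 were detected in tumor 6881, while 3 were at 0 in tumor 6877 and 4 in tumor 6880. The B cell antigen Ms4a1 had 16.5 CPM in tumor 6881, 1.2 in tumor 6877 and 1.41 in tumor 6880. The lungs had sums of 74.8 to 158.6 for the same 16 genes without Glycam1 RNA beyond 5 counts. For 16 genes of high endothelial venules the sums were 118.9, 134.8 and 169.2 CPM in tumors 6877, 6880 and 6881. The addressin Madcam1 was at 0.390 CPM in tumor 6881, 0.359 in tumor 6877 and 0 in tumor 6880. These are few counts, since 3 counts are 0.234 CPM in tumor 6881 and 0.359 in tumor 6877. The sulfotransferase Chst4 was at 0.468 CPM in tumor 6881 and 0 in both other tumors. Csn2 was also highest in tumor 6881. The part of lymph node tissue in these values was not tested.

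**Figure D3:**
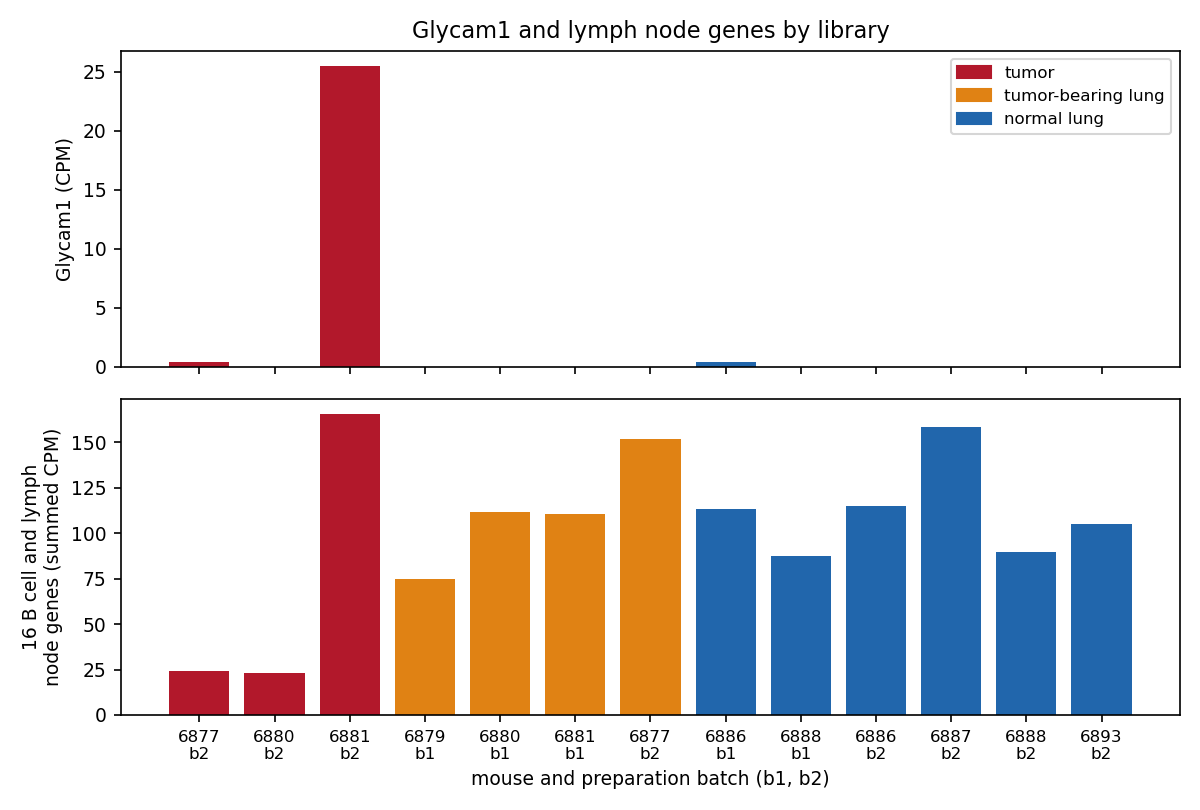
Glycam1 in CPM (above) and the summed CPM of 16 B cell and lymph node genes (below) in each of the 13 libraries, labelled by mouse and preparation batch. Tumor 6881 has 25.5 CPM of Glycam1 and a lymph node sum of 165.6, and the lungs have similar sums with at most 0.384 CPM of Glycam1.

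Mfge8 differed from the other members in being abundant in every tissue. It had 187.9, 194.5 and 187.5 CPM in tumors 6877, 6880 and 6881, with 190.0 ± 3.89 (SD, n = 3). In tumor-bearing lungs it had 89.3 CPM in mouse 6877 of batch 2 and 116.5, 150.5 and 131.8 CPM in mice 6879, 6880 and 6881 of batch 1. In normal lungs it had 181.8 and 188.5 CPM in mice 6886 and 6888 of batch 1 and 83.6 and 99.0 CPM in mice 6887 and 6893 of batch 2. Mfge8 also differed between preparation batches. The same normal lungs, prepared again in batch 2, had 90.5 and 98.1 CPM, so the batch 1 value was 2.01 and 1.92 times the batch 2 value. Tumors lay above all tumor-bearing lungs but overlapped the batch 1 normal lungs.

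With batch in the fit, Mfge8 was higher in tumors than in tumor-bearing lungs by 1.26 on the log2 scale (SE 0.19, adjusted p = 0.000262 by edgeR). It was higher than in normal lungs by 0.95 (SE 0.18, adjusted p = 0.000926 by edgeR). Within batch 2 alone, where the tumors were prepared, the log2 fold change was 1.13 against the 1 tumor-bearing lung of that batch. Against the normal lungs of batch 2 it was 1.05 (adjusted p = 0.000132 by edgeR). Without the batch term both calls of the fit over both batches were lost, at 0.63 (adjusted p = 0.0843 by edgeR) and 0.45 (adjusted p = 0.217 by edgeR). On log2 TPM with a pseudocount of 1, limma gave 0.59 against normal lungs with an adjusted p of 0.214. Tumor-bearing and normal lungs differed by −0.31 (SE 0.14), with an adjusted p of 0.355 by edgeR. That difference was −0.45 within batch 1 and −0.05 within batch 2, which holds 1 tumor-bearing lung.

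**Figure D4:**
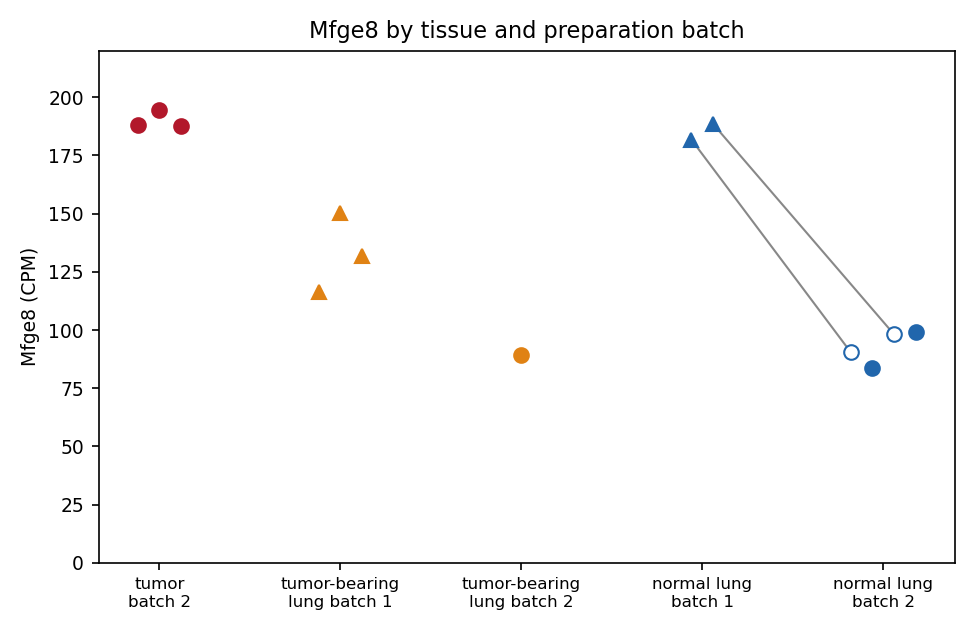
Mfge8 in CPM by tissue and preparation batch, with 1 point per library; grey lines join the 2 libraries of normal mice 6886 and 6888, and open circles are their batch 2 libraries. The tumors sit at 187.5 to 194.5, level with normal lungs of batch 1 and above all lungs of batch 2.

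In the tests of tumors, 5 of the 9 genes passed the filter on low counts (Csn3, Wfdc18, Wap, Lalba and Mfge8). The 5 were called higher against tumor-bearing lungs, where 22.6% of 18297 genes were called higher and 23.7% lower, and against normal lungs, where 24.5% were called higher and 24.7% lower. On log2 TPM with a pseudocount of 1, limma called 77.8% of its 5322 genes higher against tumor-bearing lungs and 40.5% of its 6522 genes higher against normal lungs, while edgeR's shares were 48.7% and 49.8%. Wfdc18, Wap and Lalba passed the filter through their tumor libraries alone and so had to differ, which leaves their count without weight. Csn3, Wfdc18, Wap, Lalba and Csn1s1 had every tumor above every lung of both groups, and Mfge8 above every tumor-bearing lung only. Among all genes tested, 26.6% had every tumor above every tumor-bearing lung and 27.2% above every normal lung. Through the filter this separation was fixed beforehand for Wfdc18, Wap and Lalba too, so it carries no weight for them. Csn1s1 was not among the genes tested, so these shares do not apply to it. Both comparisons share the tumors.

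The tumors differed among themselves in which milk gene was high. Tumor 6877 had the most Csn3, Wfdc18 and Wap, tumor 6881 the most Csn1s1, Csn2 and Glycam1, and tumor 6880 the least Csn3, Wfdc18, Wap, Lalba and Csn1s1. Lalba was nearly equal in tumors 6877 and 6881, at 4.55 and 4.45 CPM from 38 and 57 counts. Csn1s1 rested on 6 and 13 counts in tumors 6877 and 6881. The summed CPM of 21 luminal mammary genes was 1874, 1431 and 1372 in tumors 6877, 6880 and 6881, and that of 14 adipocyte genes was 277.9, 673.2 and 696.5. With 3 tumors no relation of the milk genes to these sums was tested. By the shape of the profile over 11 libraries, the genes most like Csn3 were BC006965, Col11a1 and Col9a1, with root mean square differences of centred log2 CPM of 0.51, 0.64 and 0.66. Those most like Mfge8 were Rcor1 and Ddb1, at 0.11 and 0.12, out of 16324 genes compared. The profiles were not adjusted for preparation batch, between which Mfge8 differed.

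Genes of the pathway that drives milk genes were called in both directions, with the prolactin receptor and Elf5 higher in tumors. Of 21 tested genes of prolactin and STAT5 signaling, 9 were higher and 6 lower in tumors than in tumor-bearing lungs (median log2 fold change 0.37, against −0.10 for all genes tested). Only 20 of the 21 passed the filter among the lungs alone, so part of the count of 9 may have been fixed beforehand. Of all genes tested, 22.6% were called higher and 23.7% lower. The prolactin receptor Prlr averaged 43.4 ± 11.8 CPM in tumors (SD, n = 3), 1.67 ± 0.24 in tumor-bearing lungs and 1.30 ± 0.49 in normal lungs (n = 4 each). Its log2 fold change against tumor-bearing lungs was 4.37 (SE 0.38, adjusted p = 3.38e-06 by edgeR). Elf5, the luminal factor that acts with STAT5, averaged 46.1 ± 7.26 CPM in tumors and 8.37 ± 1.14 in tumor-bearing lungs, a log2 fold change of 2.25. The cyclin Ccnd1 and the transcription factor Cebpb were also higher, by 1.94 and 1.504. Igf1r fell by 2.29, the STAT5-induced feedback inhibitor Socs2 by 2.46, Irs1 by 1.01 and Insr by 0.97. The 2 STAT5 genes, named here for their role, parted: Stat5a was higher by 0.83 and Stat5b lower by 0.95, with adjusted p of 0.0365 and 0.00465 by edgeR. Of the other drivers, also named for their role, Jak2 averaged 37.9 ± 2.43 CPM in tumors and 48.6 ± 8.95 in tumor-bearing lungs. The glucocorticoid receptor gene Nr3c1 averaged 78.0 ± 5.43 CPM in tumors and 127.1 ± 24.7 in tumor-bearing lungs. Prolactin itself (Prl) had 0 counts in every library of the fit. Against normal lungs 9 of 21 were higher and 7 lower. With limma on log2 TPM 9 were higher and 1 lower against tumor-bearing lungs, and between the lungs 0 of 20 were called, with 2 at an unadjusted p below 0.05, and 0 by DESeq2.

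Of 19 tested genes of lactose synthesis and of transport into milk, 10 were higher and 2 lower in tumors than in tumor-bearing lungs, where 22.6% of all genes were called higher and 23.7% lower. Their median was 0.77 on the log2 scale, against −0.10 for all genes tested. The glucose transporter Slc2a1 averaged 177.7 ± 25.7 CPM in tumors and 12.2 ± 5.35 in tumor-bearing lungs, a log2 fold change of 3.53. The zinc transporter Slc30a2, which loads zinc into milk, was higher by 5.197 and the phosphate transporter Slc20a1 by 2.20. Slc30a2 averaged 0.408 ± 0.254 CPM in tumor-bearing lungs and 0.364 ± 0.158 in normal lungs. It passed the filter through the tumors and so had to differ. Only 17 of the 19 genes passed the filter among the lungs alone, so part of the count of 10 was fixed beforehand. B4galt1, the catalytic partner of alpha-lactalbumin in lactose synthase, averaged 114.2 ± 17.1 CPM in tumors and 95.9 ± 22.2 in tumor-bearing lungs, with a log2 fold change of 0.67 (adjusted p = 0.0218 by edgeR); it is named for that role. Slc34a2, a phosphate transporter that is also an alveolar type 2 gene, fell by 8.88, and the calcium pump Atp2b2 by 5.36. Against normal lungs 12 of 19 were higher and 2 lower, and between the lungs 0 of 17 were called, with 1 at an unadjusted p below 0.05, and 0 by DESeq2.

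Milk fat genes were called in both directions. Of 20 tested genes of the fat globule and of lipid synthesis, 4 were higher and 9 lower in tumors than in tumor-bearing lungs, with a median of −0.61, against −0.10 for all genes tested. With limma on log2 TPM 3 were higher and 4 lower. By edgeR 22.6% of all genes tested were called higher and 23.7% lower, so the 4 higher are near that share. The lipogenic regulators Srebf1 and Thrsp were higher by 2.29 and 3.72, and the acyltransferases Gpat4 and Dgat2 by 1.27 and 1.05. For Dgat2 the tissues overlapped and the pooled ratio without batch was 1.035. Muc1, a mucin of the fat globule membrane that alveolar cells also make, fell by 4.84, Scd2 by 4.44, Gpam by 2.40 and the fatty acid transporter Cd36 by 3.66. Xdh, whose enzyme binds butyrophilin in the globule membrane, fell by 1.03 and is named for that role. Adipocyte genes were present beside these values: 8 of 13 tested were higher and 0 lower, with Fabp4 higher by 5.11, Cidec by 2.13 and Plin1 by 3.73. Only 7 adipocyte genes passed the filter among the lungs alone, so those that passed through the tumors had to differ and the count of 8 carries no weight. Acvr1c was called with a fitted 6.80 (SE 1.55), but it averaged 1.84 ± 1.28 CPM in tumors, 0.195 ± 0.221 in tumor-bearing lungs and 0.699 ± 1.22 in normal lungs, with overlapping values. Its pooled ratio to tumor-bearing lungs was 12.1 (95% counting interval 5.82 to 29.2). The part of fat pad adipocytes in the lipid genes was not tested. Against normal lungs 4 of 20 milk fat genes were higher and 10 lower, and between the lungs 0 of 20 were called, with 2 at an unadjusted p below 0.05, and 0 by DESeq2.

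Among 15 tested other proteins found in milk, 8 were higher and 4 lower in tumors than in tumor-bearing lungs, and 12 passed the filter among the lungs alone. Of all genes tested, 22.6% were called higher and 23.7% lower. The siderophore-binding Lcn2 averaged 987.1 ± 70.9 CPM in tumors and 11.5 ± 8.03 in tumor-bearing lungs, a log2 fold change of 5.82. Osteopontin (Spp1) was higher by 4.66, transferrin (Trf) by 3.82 and the serum amyloid Saa3 by 7.13. Saa3 averaged 0.164 ± 0.162 CPM in tumor-bearing lungs, so it passed the filter through the tumors and had to differ. The surfactant protein gene Sftpd fell by 9.37, the lysozymes Lyz1 and Lyz2 by 7.23 and 1.85, and Npc2 by 1.43. Of 8 tested genes of the WAP domain family, to which Wap and Wfdc18 belong, Wfdc3, Slpi and Wfdc17 were higher by 5.34, 1.35 and 2.11. Wfdc3 averaged 0.234 ± 0.183 CPM in tumor-bearing lungs, so it too had to differ. Wfdc1 and Wfikkn2 fell by 8.37 and 1.92. Against normal lungs 7 of 15 milk proteins were higher and 4 lower, and 2 of 8 family members higher and 3 lower. Between the lungs edgeR called 0 of 12 milk proteins, with 4 at an unadjusted p below 0.05, and DESeq2 called 2 lower. Of the WAP domain family 0 of 7 were called by either, with 2 at an unadjusted p below 0.05.

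Of 21 tested partners of lactadherin, namely receptors, relatives and phagocytosis genes, 3 were higher and 7 lower in tumors than in tumor-bearing lungs, with a median of −0.44. This is near the shares of all genes, 22.6% higher and 23.7% lower, and nothing is read from it. With limma on log2 TPM 3 were higher and 2 lower, with a median of 0.05. The integrin subunits Itgav and Itgb3, which together bind lactadherin, were higher by 1.09 and 0.84, and the engulfment receptor Megf10 by 5.27 (SE 0.97). As a fold, Itgav was 2.13 in the fit and 1.25 as the pooled ratio without batch, with overlapping tissues, and Megf10 was 38.5 and 8.33. Cd36, the receptor kinase Mertk, its ligand Gas6 and Lrp1 fell by 3.66, 2.40, 2.35 and 1.66. Of 16 macrophage genes 6 were higher and 5 lower. Among the lungs alone 20 partner genes and 15 macrophage genes passed the filter, so some of the higher calls may have been fixed beforehand. Against normal lungs 3 of 21 partner genes were higher and 8 lower, and between the lungs 0 of 20 were called, with 2 at an unadjusted p below 0.05, while DESeq2 called 1 higher.

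**Figure D5:**
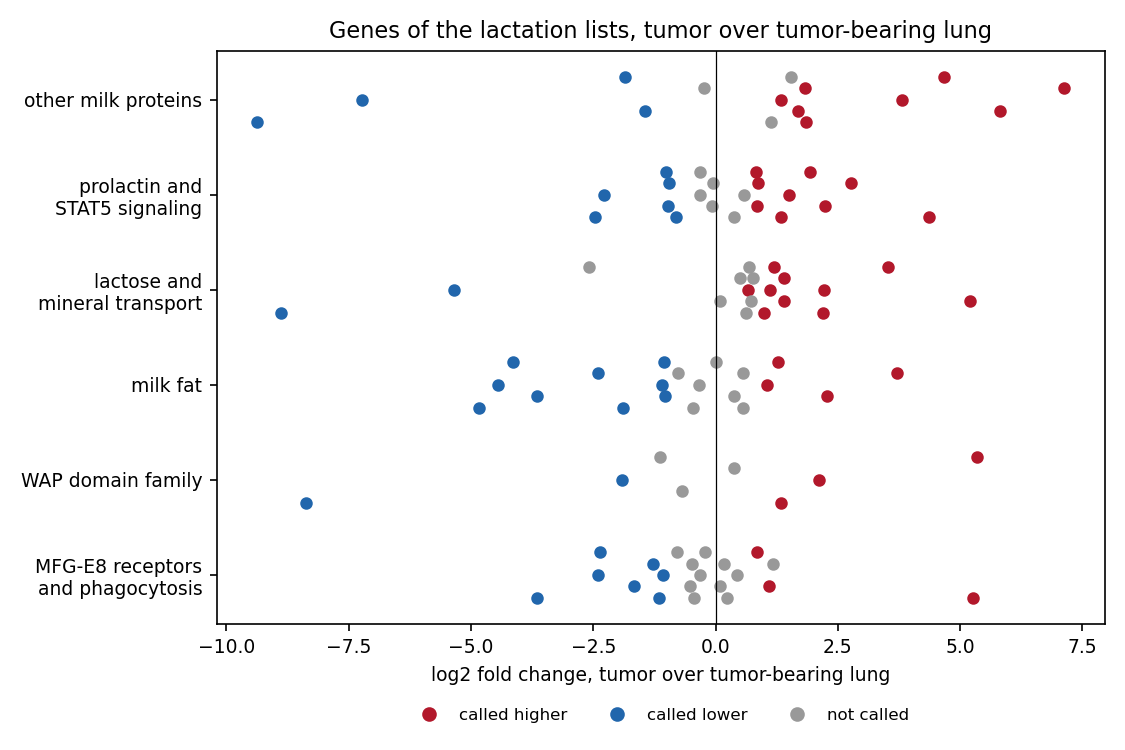
Log2 fold change in tumors over tumor-bearing lungs of each tested gene in 6 lists around lactation, red where called higher, blue where called lower and grey where not called. Lactose and transport genes are mostly right of 0 (10 higher, 2 lower), whereas milk fat genes are mostly left of it (9 lower, 4 higher). Of all genes tested, 22.6% were called higher and 23.7% lower. Genes that passed the filter through the tumors alone had to differ.

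Markers of the cell types that the tissues could hold were read beside these results. The shares over all genes tested were 22.6% higher and 23.7% lower. Of 20 tested luminal mammary genes, 9 were higher in tumors than in tumor-bearing lungs (Epcam by 3.38, Krt18 by 2.90, Cldn7 by 1.84 and Elf5 by 2.25) and 4 lower (Krt19, Tspan8, Kit and Pgr, with −4.28, −3.90, −2.77 and −1.72). Basal or myoepithelial genes were 2 higher and 4 lower of 9, alveolar type 2 genes 0 higher and 12 lower of 14, and fibroblast and smooth muscle genes 3 higher and 7 lower of 14. High endothelial venule genes were 1 higher (Cxcl13) and 7 lower of 13, lymph node and B cell genes 1 higher and 1 lower of 16, and skeletal muscle genes 0 of 2. Of the 21 luminal genes 20 also passed the filter among the lungs alone, and 20 of 23 milk fat genes did. Only 7 basal, 12 high endothelial venule and 15 lymph node and B cell genes did. Some higher calls in these 3 lists may therefore have been fixed beforehand.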

How the data were processed

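Ribosomal RNA was removed from total RNA of 20 mg of frozen tissue and single reads of 75 bp were sequenced, per the labels' protocols. The submitters' processing notes name Salmon, DESeq2 1.18.1 and mm10. The values used are the estimated counts and TPM deposited by the authors for 13 libraries. The deposited estimated counts are TPM scaled by gene length and by library (largest deviation 9.77e-15, log2, among 5152 genes). They were rounded. Of 46679 IDs, 46269 were named from GENCODE M21.

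edgeR 4.0.16 under R 4.3.3 (quasi-likelihood, TMM, filterByExpr) fitted group and preparation batch to 11 libraries for tumors and to 8 for the lungs, with Benjamini-Hochberg adjustment over all genes tested. The fits were tested on simulated counts without a batch effect, so that test cannot show how well they part batch from tissue. Against 0 counts, folds are bounds from 3 counts over the group. Ratios carry exact 95% intervals from rounded estimated counts pooled over each group, so the spread between mice is left out. Estimated counts are not numbers of reads and PCR reads are not independent molecules, so counting error is covered only in part. Same-numbered tumors and lungs are from the same mouse (correlations of residuals 0.18, 0.04 and −0.13 over 18796 genes for mice 6877, 6880 and 6881), so a block for mouse was tried.

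Other alternatives were RLE scaling, no filter, DESeq2 1.42.0, limma 3.58.1 on log2 TPM (pseudocounts of 1 and 0.1), no batch term, the batch 2 repeats, single batches and leaving out each library. Protein-coding genes alone and batch 2 alone for the lungs were added after seeing the data. The 9 genes and 16 other lists were chosen with earlier results of these data known. Named genes are the 9, up to 4 genes called in each direction per list (smallest p against tumor-bearing lungs) and the 3 genes most like Csn3 and Mfge8, of which some are not reported here; those named for a role, beside Glycam1 or around the caseins were chosen after their values were seen.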

Additional observations from a re-analysis of the deposited data

Results flagged for a closer look

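Among the lungs, 5 values stood apart because a single library of a group of 4 had any counts of the gene and the other 3 were at 0. The usual rate of about 1 in 20 groups by chance does not hold here, since 1 counted library beside 3 at 0 always stands apart, however few its counts. Wap had 0.1243 CPM, 1 count, in the tumor-bearing lung of mouse 6879. Wfdc18 had 0.3865 CPM, 4 counts, and Lalba had 0.2899 CPM, 3 counts, both in the tumor-bearing lung of mouse 6877, which was also the tumor-bearing lung with the most Csn3 at 1.546 CPM. Lalba had 0.08469 CPM, 1 count, in the normal lung of mouse 6887. Glycam1 had 0.3836 CPM, 5 counts, in the batch 1 library of normal mouse 6886 and 0 in the batch 2 library of the same mouse. A level of 3 counts corresponds to 0.193 to 0.373 CPM in these libraries, so 3 of the 5 values lie at or under it for their own library. No cause was tested.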

How the results depend on the processing

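Csn3 kept its direction and call against both kinds of lung under every alternative run, with log2 fold changes of 5.20 to 8.34 against tumor-bearing lungs outside the fits that left out a library. Wfdc18 ranged from 3.58 to 8.97 there; its call was kept too, but its near absence from lungs fixed that beforehand. The lower ends come from limma on log2 TPM, where a pseudocount compresses low values. No tested member changed sign against either lung in these fits, and no called gene of the lists did so, where leaving out a library was not read for the lists. The untested Csn2 did turn: its pooled ratios of 10.9 and 8.58 became 0.564 and 0.445 without tumor 6881. The replicate block called 8607 genes against tumor-bearing lungs and among the members ended only the call of Lalba.

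Of the counts over all genes, limma on log2(TPM + 1) called 5322 genes between tumors and tumor-bearing lungs, against 8471 by edgeR, and with a pseudocount of 0.1 the median of all genes moved to 0.22, against −0.10. That setting moved it to −0.19, against −0.04, for tumors and normal lungs and to −0.54, against 0.01, between the lungs. Between the lungs the 6 calls became 275 with no filter, 426 by DESeq2, 90 and 65 by limma on log2 TPM with pseudocounts of 1 and 0.1, 39 in batch 1 alone, and 1 each without the batch term and with mice 6886 and 6888 taken from batch 2. Csn3 and Mfge8, where tested in these lung fits, were not called. Leaving out 1 library gave 6444 to 8375 calls against tumor-bearing lungs, 7517 to 9100 against normal lungs, and 0 to 221 between the lungs: 221 without tumor-bearing mouse 6877, 16 without normal mouse 6887, and 0 without normal mouse 6886 or tumor-bearing mice 6879, 6880 or 6881. The lone library left in a group and batch is then assumed to vary like the others.

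Depth limits the lungs: 3 counts in a library are 0.193 to 0.373 CPM, so a gene at such a level can be counted in one library and missed in another. Lung values from 1 or 2 counts, which include those of Csn2 and that of Csn3 in normal mouse 6893, do not order the lungs, and a count of 0 does not show absence.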

Other observations

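Some further genes of the lactating or luminal mammary gland had too few counts to be tested and were counted mainly in the tumors. They were chosen after their values were seen, and other untested genes of the lists were not higher in tumors. Sult1d1, near the caseins, averaged 0.0780 ± 0.135 CPM in tumors, 0.853 ± 0.813 in tumor-bearing lungs and 0.602 ± 0.375 in normal lungs. Cidea, of the milk fat list, averaged 0.078 CPM in tumors, 0.142 in tumor-bearing lungs and 0.0874 in normal lungs. Btn1a1, the butyrophilin of the milk fat globule membrane, averaged 1.07 ± 0.107 CPM in tumors (SD, n = 3), 0 in tumor-bearing lungs and 0.0212 ± 0.0423 in normal lungs (n = 4 each). The oxytocin receptor Oxtr, which mediates milk ejection, averaged 0.824 ± 0.436 CPM in tumors, 0.0311 ± 0.0622 in tumor-bearing lungs and 0.0404 ± 0.0467 in normal lungs. Cited1, a transcriptional coactivator of luminal cells, averaged 1.15 ± 0.658 CPM in tumors, 0.0161 ± 0.0322 in tumor-bearing lungs and 0.0854 ± 0.00636 in normal lungs. Olah, the thioesterase that ends fatty acid chains early in milk fat synthesis, had 0 counts in all 3 groups.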
